A study of Mus musculus with 48 samples.

Results

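The liver 9 days after gastric bypass was profiled by mRNA sequencing in 8 mice of a series of 48 libraries, 4 after Roux-en-Y gastric bypass (RYGB) and 4 after sham surgery. These 8 livers were taken by their labelled tissue and day, without the use of any measured value. In RYGB the stomach is divided into a small upper pouch connected directly to the jejunum, and the larger part of the stomach and the duodenum no longer receive food. All 8 mice were male C57Bl6 mice with obesity induced by a high fat diet. After RYGB or sham surgery both groups were given an elemental liquid diet, and they were killed at 10am after an overnight fast. The labels give neither the age nor the weight of the mice, and they do not say whether the sham group was matched for weight or food intake. Each library is labelled as 1 sample of its group, and the labels do not describe separate cages or surgery days, so the p values measure the spread between these samples.

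Values are CPM, the reads of a gene scaled to a common total of reads per library. The table listed 11843 genes, each with at least 1 CPM in at least 4 of the 8 libraries, so a gene with less than 1 CPM throughout a group was listed only through the other group, and its groups cannot overlap. Differences are given as log2 fold changes of RYGB against sham on the scale of log2(CPM + 1), which understates the change of genes with low CPM. A differentially expressed gene (DEG) had an adjusted p value under 0.05 (limma, Benjamini-Hochberg adjustment over the 11807 genes whose mean reached 1 CPM) and a change of at least 1.5-fold. Lanes are those in the library names. Lane 2 held RYGB 1 and sham 2, lane 3 held RYGB 2, sham 3 and sham 4, and lane 4 held RYGB 3, RYGB 4 and sham 1.

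Of 11807 genes, 836 were DEGs (7.08%), 684 higher (5.79%) and 152 lower (1.29%) in the RYGB group. Over all genes the log2 fold change had a median of 0.13. Dividing each library by its median ratio to the gene-wise mean moved this median to -0.01, a shift of more than 0.1, and then 437 genes were higher (3.7%) and 235 lower (1.99%). Of the DEGs, 785 had RYGB and sham values that did not overlap, which in 37 of them followed from the listing (all 4 livers of 1 group under 1 CPM), and 832 had the same sign within each of the 3 lanes. Only 271 were called in all 8 fits that each left out 1 library. For a DEG named below the number of these fits that called it is given where it was under 8. Over all genes these fits gave from 329 DEGs (without RYGB 3) to 1204 (without RYGB 1), so list counts from them have a different background in each. The gene lists below were chosen with earlier results of these data known, so their shares of DEGs are descriptive and test nothing.

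RYGB 2 stood apart. It had a median rank correlation of 0.946 with the other libraries, against 0.969 to 0.982 for the rest, and in 557 of 836 DEGs (66.6%) it was the RYGB liver farthest from the sham mean. Sham 3 did not stand apart by that measure, since its 0.982 was the highest of all 8. One of the 4 sham livers must be nearest to the RYGB mean in each DEG, and this was sham 3 in 36.5% of DEGs, sham 2 in 28.5%, sham 4 in 23.4% and sham 1 in 11.6%. Among the higher DEGs it was sham 3 in 34.1% and sham 2 in 30.8%, and among the lower DEGs sham 3 in 47.4% and each of the others in 17.1% to 17.8%. All libraries were kept, and for most lists counts without RYGB 2 or sham 3 are given. Without both of them 605 genes were DEGs, 461 of them higher.

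The liver turns surplus carbohydrate into fatty acids, burns fatty acids and makes ketone bodies in fasting, and makes bile acids, plasma proteins and many detoxifying enzymes. In male mice its output also follows the pulses of growth hormone, which keep a set of male-biased genes high and female-biased genes low. Its resident macrophages, the Kupffer cells, line the sinusoids, and monocytes from blood can enter and become macrophages of another kind. The libraries carried the marks of hepatocytes, with Alb, which encodes albumin, between 63139 and 98977 CPM. None of the 12 hepatocyte markers tested was a DEG, and 3 had an unadjusted limma p under 0.05. Over all genes tested, 3181 of 11807 had an unadjusted limma p under 0.05.

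**Figure D1:**
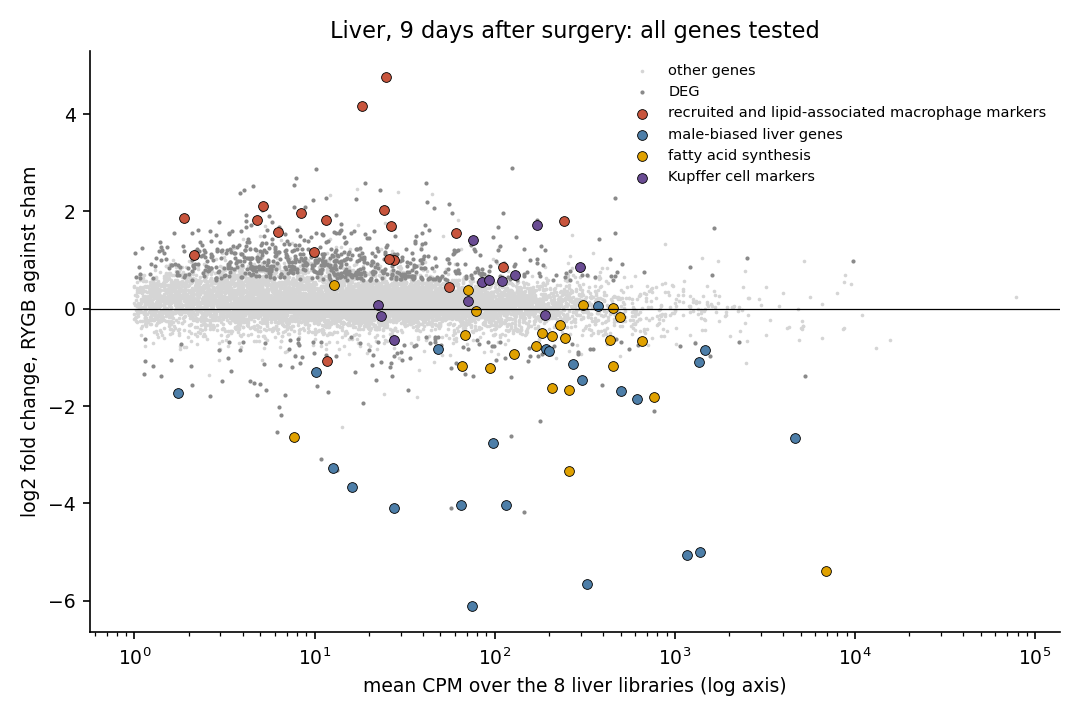
Log2 fold change of RYGB against sham for each of the 11807 genes tested, against the mean CPM over the 8 liver libraries on a log axis. DEGs are dark grey, other genes light grey, and 4 gene lists are coloured. Macrophage markers reach 4.76 (Mmp12), male-biased genes fall to -6.11 (Hsd3b5) and Scd1 lies at -5.39, while Kupffer cell markers lie between -0.65 and 1.73 without a DEG.

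Genes of fatty acid synthesis were lower in the RYGB group. Of 24 listed genes tested, 12 were DEGs and all 12 were lower, against 1.29% of all genes, and the median log2 fold change was -0.65 against 0.13 over all genes. Scd1, which encodes the desaturase that makes oleate, is at chr19:44394455-44407879 in GRCm38. It had 607, 59.1, 94.3 and 387 CPM in RYGB 1 to 4 and 11755, 22110.2, 818 and 19377 CPM in sham 1 to 4. Every RYGB liver lay below every sham liver, but sham 3 lay far closer to the RYGB group than to the other sham livers. Its log2 fold change was -5.39 (SE 1.02, adjusted p = 0.0139), and within lanes 2, 3 and 4 the difference was -5.18, -6.05 and -5.93. Thrsp, a regulator of lipogenesis, had 112, 16.8, 22 and 74.2 CPM after RYGB and 575, 637, 241 and 398 CPM after sham surgery. The groups did not overlap and RYGB 2 was lowest, with a log2 fold change of -3.33 (SE 0.54, adjusted p = 0.00782). Fasn, the fatty acid synthase itself, had 512, 206, 248 and 356 CPM against 1050.4, 1993, 547 and 1242 CPM, where the highest RYGB value lay just under sham 3. It changed by -1.81 (SE 0.37, adjusted p = 0.0178), a call that was lost without RYGB 3 (adjusted p = 0.0622) and without sham 4 (adjusted p = 0.0517).

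Srebf1 encodes SREBP1, the transcription factor that drives this set of enzymes in the fed state. It had 196, 74.6, 81.3 and 77.6 CPM in the RYGB livers and 331, 294, 278 and 323 CPM in the sham livers. All 4 sham values lay close together, sham 3 included, and all RYGB values lay below them. The log2 fold change was -1.63 (SE 0.26, adjusted p = 0.00771) and held in all 8 fits with 1 library left out. Mlxipl, which encodes the carbohydrate-responsive factor ChREBP, changed less (-0.60, SE 0.17, adjusted p = 0.0485) and was called in 1 of the 8 fits.

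Other lower DEGs were Pnpla3, which encodes a lipid droplet protein (-2.64, 2 of 8 fits), Acss2, which activates acetate (-1.67, 6 of 8 fits), Acacb, the acetyl-CoA carboxylase at the mitochondrion (-1.22, 3 of 8 fits), Acly, which makes cytosolic acetyl-CoA (-1.17, 2 of 8 fits), and Me1, which supplies NADPH (-0.94, 4 of 8 fits). Acaca, the cytosolic acetyl-CoA carboxylase, had 55.5, 47.6, 54 and 57 CPM after RYGB and 61.8, 135, 61.2 and 73.9 CPM after sham surgery. The groups did not overlap, and its log2 fold change of -0.54 did not pass the test (adjusted p = 0.137). The number of DEGs on the list changed when 1 library was left out, to 7 without RYGB 2, 3 without RYGB 3, 6 without sham 2 and 3 without sham 4, 9 without sham 3, and 7 without RYGB 2 and sham 3, lower in the RYGB group throughout. The summed CPM of the list lay between 3588 and 5224 in the RYGB livers, at 6058 in sham 3 and between 18073 and 32785 in the other sham livers.

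Genes of cholesterol synthesis, the usual targets of the related factor SREBP2, changed less. Of 25 genes tested 1 was a DEG, against 7.08% of all genes, and 18 had a negative log2 fold change. The median was -0.17 against 0.13 over all genes, and after scaling -0.32 against -0.01. Hmgcs1, which makes HMG-CoA for the pathway, had 1347, 746, 579 and 1133 CPM after RYGB and 1132, 1544, 595 and 818 CPM after sham surgery. The ranges overlapped nearly in full (log2 fold change -0.09, SE 0.32, adjusted p = 0.88). Sqle, which encodes squalene epoxidase, had 234, 206, 115 and 204 CPM against 217, 213, 93.2 and 149 CPM, with RYGB 3 and sham 3 lowest in their groups (0.20, adjusted p = 0.676). Insig1, which holds SREBP factors back when sterols are plentiful, was at -0.88 (adjusted p = 0.0879). The single DEG was higher, and after scaling the list had 1 DEG, which was lower. It had 5 DEGs without RYGB 1, 4 of them lower, 4 without sham 3, 3 of them lower, and none without RYGB 2, sham 1, sham 2 or sham 4. With lane as a covariate it had 1 higher and 2 lower.

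The promoters of both lists were searched for a sterol response element, the site bound by SREBP factors, written TCACNCCAC, on both strands of the 250 bases before each RefSeq start. It occurred in 1 of 21 fatty acid synthesis genes with a promoter (Mlxipl) and in 1 of 17 cholesterol genes (Hmgcs1). Among the 9387 genes tested that had a promoter, 1.31% had the motif. The 2 matches are shown with 40 bases on each side, 5′ to 3′ on the strand of the gene, with the motif in capitals. They lie within chr5:135106641-135106890 and chr13:119690101-119690350 of GRCm38.p6, both genes on the plus strand.
Mlxipl: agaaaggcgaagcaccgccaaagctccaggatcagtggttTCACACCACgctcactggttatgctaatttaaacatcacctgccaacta
Hmgcs1: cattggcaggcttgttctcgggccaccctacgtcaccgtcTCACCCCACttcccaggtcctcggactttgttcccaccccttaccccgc
Mlxipl was a lower DEG and Hmgcs1 was not called, and a letter match is no evidence of binding.

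On the side of fat breakdown, 3 of 34 genes of fatty acid oxidation and ketone bodies were higher DEGs, against 5.79% of all genes, and the list had a median of 0.27. Cpt1a, which carries long-chain fatty acids into the mitochondrion and limits the rate of their oxidation, had 502, 636, 731 and 783 CPM against 282, 371, 337 and 408 CPM. The groups did not overlap, and the log2 fold change was 0.92 (SE 0.17, adjusted p = 0.0117), with 0.44, 0.78 and 1.42 within lanes 2, 3 and 4. Ppargc1a, the coactivator of mitochondrial and fasting genes (0.72, adjusted p = 0.0195, 5 of 8 fits), and Bdh1, which makes hydroxybutyrate (0.68, adjusted p = 0.0381, 2 of 8 fits), were the other two. Both lost the call after scaling, when Cpt1a stayed higher and 2 genes of the list were lower DEGs. Without sham 3 the list had 9 higher DEGs, and it had 8 without RYGB 2 and sham 3 and 8 with lane as a covariate. It had 5 without RYGB 1 and 1 without sham 1, sham 2 or sham 4.

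**Figure D2:**
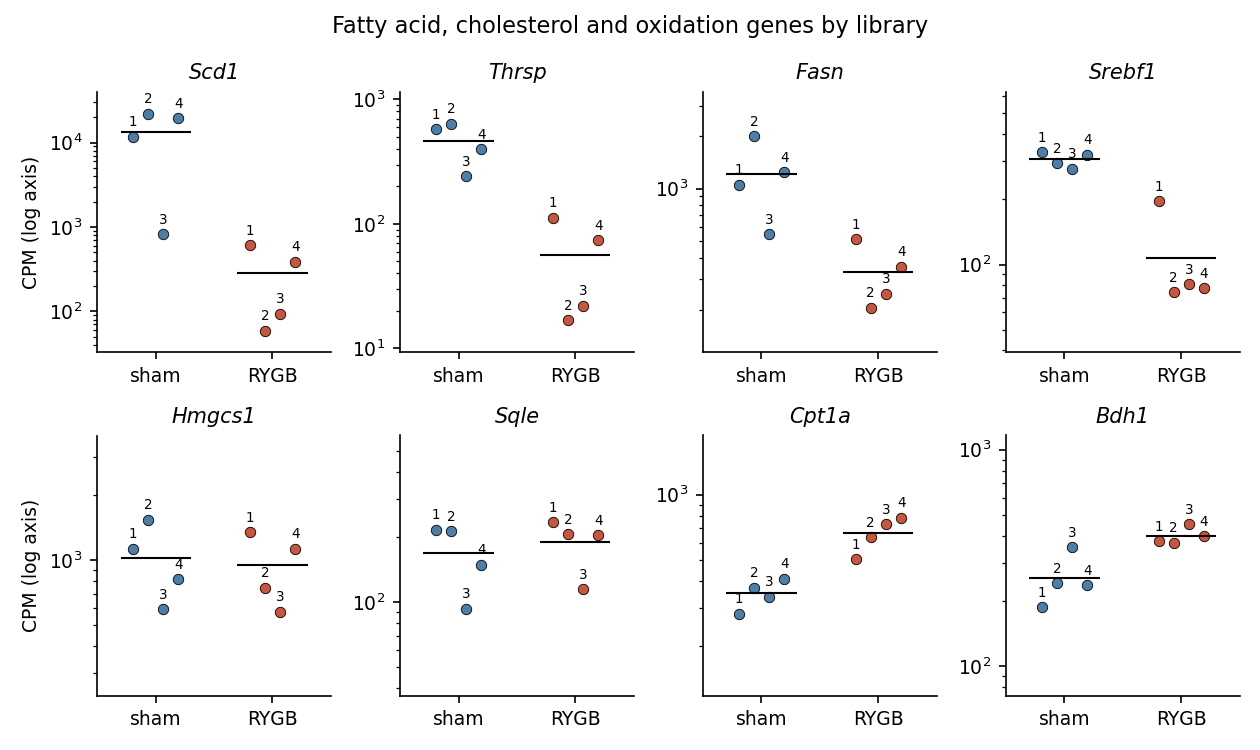
CPM on a log axis of 8 genes in each library, with the library number beside each point and the group mean as a line. Scd1, Thrsp, Fasn and Srebf1 are lower and Cpt1a and Bdh1 are higher after RYGB without overlap, while Hmgcs1 and Sqle overlap. Sham 3 is the lowest sham liver for Scd1, Thrsp, Fasn and Srebf1 and the highest for Bdh1.

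Of 17 lipid droplet and lipolysis genes 2 were higher DEGs and 1 lower, against 5.79% and 1.29% of all genes. Pnpla2, the adipose triglyceride lipase (0.66, adjusted p = 0.0158), and Hsd17b13 (0.66, adjusted p = 0.0421, 1 of 8 fits) were higher. Fitm1, which helps to form lipid droplets, was lower (-0.69, adjusted p = 0.0388, 2 of 8 fits). After scaling only Fitm1 was called, and without sham 1 there was 1 DEG. Cidec, a droplet protein of fatty liver, had 3.4, 7.5, 18 and 3.7 CPM against 0.9, 1.7, 3.3 and 1.4 CPM. It lay higher in every RYGB liver, by a small margin over sham 3, and just missed the threshold (1.49, adjusted p = 0.0524).

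Of 35 genes of glycolysis, gluconeogenesis and glycogen 5 were higher DEGs, against 5.79% of all genes, and none was lower. The median of 0.18 was close to the 0.13 of all genes. Igfbp1, a binding protein of insulin-like growth factors that insulin keeps low, had 49.3, 492, 183 and 172 CPM after RYGB and 40.2, 10.3, 29.3 and 17.5 CPM after sham surgery. RYGB 2 was highest and RYGB 1 lay close to sham 1 (2.89, SE 0.59, adjusted p = 0.0177), and the call was lost without RYGB 3 (adjusted p = 0.0576) and without sham 4 (adjusted p = 0.0517). Ppp1r3g, which targets a phosphatase to glycogen, had 2.8, 14.3, 2.4 and 11.5 CPM against 0.1, 0.2, 1 and 0.1 CPM. The RYGB values fell into a low and a high pair, all above the sham values (2.43, SE 0.47, adjusted p = 0.0139). Pkm, the pyruvate kinase of cells other than hepatocytes, rose by 1.09 (adjusted p = 0.0234, 4 of 8 fits), Hk1 by 0.82 (adjusted p = 0.0396, 3 of 8 fits) and Gys2, the glycogen synthase of liver, by 0.66 (adjusted p = 0.0318, 3 of 8 fits). Hk1 and Gys2 lost the call after scaling. Pck1, which encodes the gluconeogenic PEP carboxykinase, was at 0.99 (adjusted p = 0.0818). Pklr, the other pyruvate kinase gene of the list, had the opposite sign to Pkm and was not called (-0.74, adjusted p = 0.0616). With lane as a covariate Pklr was a lower DEG (-0.78, adjusted p = 0.0099). The list had 1 DEG without RYGB 3, 1 without sham 4, 2 without sham 2 and 3 without sham 1, and without RYGB 1 it had 6 higher and 2 lower. It had 4 higher without RYGB 2, 6 higher and 1 lower without sham 3, 4 higher and 1 lower without both, and 7 higher and 2 lower with lane as a covariate.

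Male-biased liver genes were lower in the RYGB group and included the largest decrease of all DEGs. Of 23 tested, 18 were DEGs and all 18 were lower, against 1.29% of all genes, with a median of -1.86. In 17 of the 23 every RYGB liver lay below every sham liver. How many of all genes tested had separate groups was not counted, so this number has no background. Of all 836 DEGs, 785 had separate groups in either direction. In 2 of these, Hsd3b5 among them, all RYGB livers were under 1 CPM, so the listing fixed the separation, and of the other 21 genes 16 were DEGs and 15 had separate groups. Hsd3b5, a male-specific steroid dehydrogenase at chr3:98618634-98630252, had 0.9, 0.1, 0.6 and 0.3 CPM after RYGB and 188, 263, 14.2 and 130.3 CPM after sham surgery. No RYGB liver reached 1 CPM, and sham 3 was far below the other sham livers. The log2 fold change was -6.11 (SE 0.71, adjusted p = 0.00153), and -7.12, -5.34 and -7.03 within lanes 2, 3 and 4. Cyp4a12a, an arachidonic acid hydroxylase driven by androgen and growth hormone, had 1.7, 4.1, 32.2 and 3.9 CPM against 151, 157, 105 and 64.3 CPM. RYGB 3 was highest of its group and still below every sham liver (-4.04, SE 0.63, adjusted p = 0.00646). Its copy Cyp4a12b shares sequence with it, since 51.1% of the 50-base windows of the Cyp4a12a transcript occur in no other Cyp4a gene, and it moved the same way (-3.27).

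Cyp2d9, a steroid hydroxylase, had values close together within each group, 273, 200.2, 229.6 and 249 CPM against 709, 872, 787 and 724 CPM. Sham 3 lay among the other sham livers here (-1.70, SE 0.13, adjusted p = 0.000185). Elovl3, a fatty acid elongase, had 14.3, 11, 46.4 and 29.2 CPM after RYGB and 198, 263, 71.4 and 145 CPM after sham surgery. Sham 3 was the lowest sham liver and RYGB 3 the highest RYGB liver (-2.76, SE 0.46, adjusted p = 0.00843). Slco1a1, an uptake carrier for bile acids and other organic anions, had 154, 99.1, 211 and 175 CPM against 509, 609.8, 233 and 456 CPM, and again the lowest sham value was sham 3 (-1.46, SE 0.30, adjusted p = 0.017). The count of lower DEGs on the list stayed between 16 and 19 with 1 library left out, was 18 after scaling and 20 without RYGB 2 and sham 3.

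The major urinary proteins (Mup) carry pheromones in male urine and are made by the liver under growth hormone. All 18 Mup genes in the table were lower in the RYGB group and 16 of them were DEGs, against 1.29% of all genes. Several of them, Mup3, Mup7, Mup11, Mup12, Mup17 and Mup21 included, are also on the male-biased list. This count and that of the male-biased list are therefore not independent. Mup7 had 69.7, 12.4, 113 and 269 CPM after RYGB and 3234, 2956, 936 and 3466 CPM after sham surgery, with sham 3 lowest of its group (-5.01, SE 0.76, adjusted p = 0.00573). Mup17 had 6.1, 0.7, 73.6 and 14.7 CPM against 809, 212, 571 and 930.0 CPM, and the RYGB values spread widely below the sham values (-5.66, SE 0.92, adjusted p = 0.00782). Mup11 (-5.05), Mup14 (-4.17), Mup12 (-4.10) and Mup16 (-4.09) were among the 10 largest decreases with separate groups. Mup21 had 5.9, 9.5, 24.9 and 12.7 CPM against 316, 221, 206 and 127 CPM, a clear gap with no overlap (-4.04, SE 0.37, adjusted p = 0.000417). Summed over the family, the level was 2935, 975, 4085 and 3297 CPM in RYGB 1 to 4 and 20880, 17360, 10475 and 17281 CPM in sham 1 to 4.

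These genes are near-identical copies, and reads of 1 copy can be counted at another. Of the 50-base windows of the transcript, 9.8% were found in no other annotated Mup gene for Mup7, 11.0% for Mup11, 2.4% for Mup14 and 21.9% for Mup17, so the values of single copies are uncertain. For Mup3 the share was 84.4% and for Mup21 80.7%. Mup3 had 1740.0, 440.3, 1879 and 1454 CPM against 9422, 9049, 4925 and 8079 CPM, and no RYGB value reached the lowest sham value (-2.66, SE 0.42, adjusted p = 0.00697). Likeness extends into the promoters. The 250 bases before the RefSeq starts of Mup11 (chr4:60662396-60662645, minus strand) and Mup17 (chr4:61595833-61596082, minus strand; GRCm38.p6) share an unbroken run of 154 bases, in capitals, 5′ to 3′ on the strand of the gene.
Mup11: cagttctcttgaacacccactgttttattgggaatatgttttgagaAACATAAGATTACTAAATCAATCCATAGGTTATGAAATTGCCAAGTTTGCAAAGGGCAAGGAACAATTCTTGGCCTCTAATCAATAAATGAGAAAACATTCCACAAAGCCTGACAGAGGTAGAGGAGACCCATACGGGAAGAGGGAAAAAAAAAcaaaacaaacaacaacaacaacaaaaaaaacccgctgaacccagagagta
Mup17: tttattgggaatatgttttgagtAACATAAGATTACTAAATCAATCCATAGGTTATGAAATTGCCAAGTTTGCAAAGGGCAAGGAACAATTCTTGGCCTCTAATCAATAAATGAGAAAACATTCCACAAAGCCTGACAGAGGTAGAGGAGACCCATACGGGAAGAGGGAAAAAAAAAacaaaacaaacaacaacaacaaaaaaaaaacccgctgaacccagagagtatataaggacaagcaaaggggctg

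Female-biased genes moved the other way. Of 24 listed, 11 were in the table, and the counts are of these alone. Of the 11, 4 were DEGs, all higher, against 5.79% of all genes, with a median of 1.34. Cyp17a1, a steroid hydroxylase, had 100.3, 39.1, 50.1 and 91.4 CPM after RYGB and 20.7, 12.8, 9 and 13.3 CPM after sham surgery. The groups did not overlap (2.20, SE 0.31, adjusted p = 0.00396). Abcd2, a peroxisomal fatty acid transporter, had 73.7, 66.7, 80.9 and 71.8 CPM against 8.1, 13.2, 35.3 and 19.7 CPM, where sham 3 was the highest sham liver (2.07, SE 0.33, adjusted p = 0.00702). Cyp2a22 (2.08, adjusted p = 0.0119) and Fmo2 (1.34, adjusted p = 0.00876) were the other higher DEGs. In Cyp2b9, a female-specific P450, sham 3 stood far from its group. It had 14.9, 6.8, 89.5 and 52.2 CPM after RYGB, but 1.2, 3.3 and 27.4 CPM in sham 1, 2 and 4 and 231 CPM in sham 3, the highest of all 8 livers (0.81, adjusted p = 0.709). The list had 5 higher DEGs without RYGB 2. Without sham 3 it had 7 and a median of 2.03, and the summed CPM of the list was 340 in sham 3, 43.7 to 85.2 in the other sham livers and 166 to 306 in the RYGB livers. Classic female markers such as Cyp2b13, Sult3a1 and A1bg were not among the genes listed.

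Of 15 genes of the growth hormone and insulin-like growth factor axis, 3 were higher and 2 lower DEGs, against 5.79% and 1.29% of all genes. Without sham 4 there were 1 higher and 2 lower. Ghr, the growth hormone receptor, had 497, 298, 424 and 407 CPM after RYGB and 685, 704, 641 and 810.3 CPM after sham surgery, without overlap (-0.82, SE 0.16, adjusted p = 0.0148). Serpina3k, which responds to growth hormone, had 2378, 3110.3, 3047 and 2893 CPM against 9263, 8675, 4656 and 8099 CPM (-1.38, SE 0.24, adjusted p = 0.00998). Igfbp2, a binding protein that is high in fasting, had 614, 742, 707 and 709.8 CPM against 174, 214, 338 and 242 CPM. Its RYGB values lay within a narrow range far above sham, sham 3 again being the highest sham liver (1.55, SE 0.18, adjusted p = 0.00153). Socs2, a feedback inhibitor that growth hormone induces, had 24.9, 19.8, 7.1 and 34.7 CPM against 4.8, 4.8, 7.7 and 6 CPM, and here RYGB 3 lay within the sham range (1.56, SE 0.37, adjusted p = 0.0296, 3 of 8 fits, 1.43 and not called after scaling). Igf1 itself had 539.9, 513, 424 and 562 CPM against 760.2, 651, 647 and 701 CPM, all RYGB values below all sham values, and did not pass the test (-0.44, adjusted p = 0.0549).

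**Figure D3:**
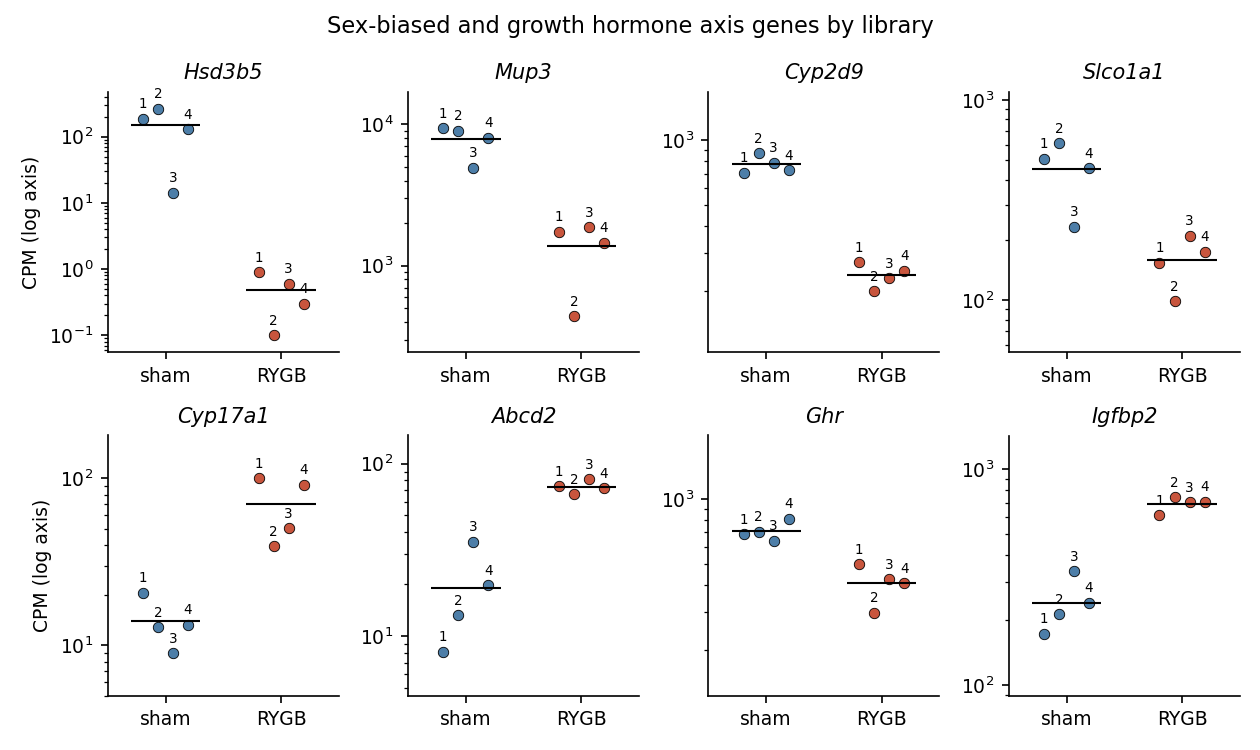
CPM on a log axis of 4 male-biased genes (Hsd3b5, Mup3, Cyp2d9, Slco1a1), 2 female-biased genes (Cyp17a1, Abcd2), Ghr and Igfbp2 in each library, with the library number beside each point and the group mean as a line. In none of the 8 panels do the groups overlap, and sham 3 is the sham liver nearest to the RYGB group in Hsd3b5, Mup3, Slco1a1, Abcd2, Ghr and Igfbp2.

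Markers of recruited and lipid-associated macrophages were mostly higher in the RYGB group. Of 19 tested, 16 were DEGs and all 16 were higher, against 5.79% of all genes, with a median of 1.70. This list too was chosen with earlier results of these data known, so the comparison is descriptive. Only 1 gene of the list had a negative log2 fold change, at -1.06, and it was not a DEG. Mmp12, a macrophage elastase at chr9:7344381-7369499, had 72.6, 41.2, 49.6 and 32.3 CPM after RYGB and 0.3, 0.2, 2.9 and 0.6 CPM after sham surgery. Only sham 3 exceeded 1 CPM in the sham group (4.76, SE 0.36, adjusted p = 0.000185), and the difference was 5.94, 4.08 and 4.98 within lanes 2, 3 and 4. Gpnmb, a glycoprotein of lipid-laden macrophages at chr6:49036546-49070929, had 41.4, 35.6, 49.6 and 15.5 CPM against 0.3, 0.6, 2.2 and 0.9 CPM. The same sham liver was highest, and RYGB 4 was the lowest RYGB liver (4.16, SE 0.35, adjusted p = 0.00033). Trem2, a lipid receptor of such cells, had 9, 7.2, 11.3 and 5 CPM against 1.1, 1.2, 1.8 and 1.9 CPM (1.83, SE 0.22, adjusted p = 0.00169).

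Itgax, which encodes CD11c, had 10, 5.6, 16.4 and 4.9 CPM after RYGB and 0.8, 0.9, 1.9 and 1.1 CPM after sham surgery (2.12, SE 0.31, adjusted p = 0.00518). Ccr2, the chemokine receptor of blood monocytes, had 15.9, 20.1, 29.4 and 10.2 CPM against 3.2, 4.8, 5.8 and 3.7 CPM, and RYGB 3 was highest (1.82, SE 0.27, adjusted p = 0.00534). Lgals3 (2.02), Cd63 (1.97), Clec4e (1.87), Lyz2 (1.81), Clec7a (1.70), Cx3cr1 (1.57) and Lpl, the lipoprotein lipase (1.56), rose in the same way, each with every RYGB liver above every sham liver. For Clec4e all sham livers were under 1 CPM, so the listing fixed this, and 15 of the other 18 genes were DEGs. Spp1, osteopontin, had 48.7, 59.3, 102 and 49.6 CPM against 29.8, 59.9, 46.9 and 49.7 CPM with overlapping ranges (0.44, adjusted p = 0.285). The list kept 14 to 16 higher DEGs with 1 library left out, 16 after scaling and 15 without RYGB 2 and sham 3, and its median within lanes 2, 3 and 4 was 1.66, 1.52 and 1.88.

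None of the 12 Kupffer cell markers was a DEG by limma (1 without RYGB 1 and 1 without RYGB 3). With lane as a covariate, however, 4 were higher DEGs. An unadjusted limma p under 0.05 was found for 6, against 3181 of all 11807 genes. Of the 12, 9 had a positive log2 fold change and the median was 0.57. Clec4f, a lectin restricted to Kupffer cells, had 158, 213, 147 and 201 CPM after RYGB and 130.0, 244, 215 and 206 CPM after sham surgery, with full overlap (-0.12, SE 0.20, adjusted p = 0.712). Timd4, a marker of long-lived Kupffer cells, had 12.3, 80, 1.9 and 24.3 CPM against 10.3, 20.4, 13.4 and 17 CPM. RYGB 2 was highest and RYGB 3 lowest of all 8 livers (0.08, adjusted p = 0.957). Cd5l (0.85, adjusted p = 0.148) and Marco had their highest value in RYGB 2 too, at 804 and 854 CPM. Summed over the list, RYGB 2 had 3282 CPM, the other RYGB livers 1025 to 1266 and the sham livers 626 to 1146. In whole tissue, more cells of a type and more RNA per cell cannot be told apart, here and in the results that follow.

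Neutrophil markers that were in the table, 9 of 15, had their highest sum in RYGB 2. Of the 9, 5 were higher DEGs, against 5.79% of all genes, with a median of 1.92. For Retnlg and Cxcr2 all sham livers were under 1 CPM, so these were listed only through the RYGB livers. Each of the other 7 had every RYGB value above every sham value, and 3 of them were DEGs. This separation was not counted over all genes tested, so it has no background. Of all 836 DEGs, 785 had separate groups in either direction. S100a9, an abundant calcium-binding protein of neutrophils, had 16.2, 244, 34.1 and 15.7 CPM after RYGB and 7.7, 6.5, 4.7 and 4 CPM after sham surgery (2.59, SE 0.70, adjusted p = 0.0437). RYGB 2 alone made up most of the group's total, and the call was lost without RYGB 3 (adjusted p = 0.104), without sham 1 (adjusted p = 0.0873), without sham 2 (adjusted p = 0.0835), without sham 3 (adjusted p = 0.0796) and without sham 4 (adjusted p = 0.0937). Ngp, a granule protein of immature neutrophils, had 3.3, 111, 14.5 and 2.8 CPM against 1.6, 2.6, 1 and 0.6 CPM and did not pass the test (2.47, adjusted p = 0.0976). Il1b, the cytokine interleukin 1 beta, had 7.1, 21.3, 7.6 and 7.6 CPM against 3.2, 2.6, 2.8 and 2.3 CPM, a difference that held in all 8 fits (1.53, SE 0.29, adjusted p = 0.0138). Retnlg (1.92, adjusted p = 0.042, 3 of 8 fits), Csf3r (1.21, adjusted p = 0.0235, 5 of 8 fits) and Cxcr2 (1.21, adjusted p = 0.0427, 2 of 8 fits) were the other DEGs. The summed CPM was 696 in RYGB 2, 50.2 to 107 in the other RYGB livers and 15.7 to 25.2 in the sham livers. The list had 5 DEGs without RYGB 2 and 5 without RYGB 2 and sham 3, with medians of 1.29 and 1.25. It had 9 without RYGB 1, 1 without RYGB 3, 2 without sham 2 or sham 3, 1 without sham 1 or sham 4, and 2 after scaling. The granule genes Mpo and Elane were not listed.

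Of 28 acute phase genes 8 were DEGs, all higher, against 5.79% of all genes. Saa1 and Saa2, the serum amyloids of hepatocytes, were not among the 8. Lcn2, an iron-sequestering protein of liver and neutrophils, had 298, 1946, 439.9 and 441 CPM after RYGB and 318, 141, 76.2 and 57.2 CPM after sham surgery. Sham 1 exceeded RYGB 1 and RYGB 2 was highest (2.28, SE 0.61, adjusted p = 0.0427, called in 2 of the 8 fits and not after scaling). Saa3, the serum amyloid of macrophages, had 50.6, 36, 24.1 and 20.6 CPM against 3.9, 3.3, 11.1 and 2.2 CPM without overlap (2.58, SE 0.38, adjusted p = 0.00534). Saa1, the serum amyloid of hepatocytes, had 188, 349, 209 and 149.9 CPM against 2192, 569, 118 and 206 CPM, and the highest values of all were in sham 1 and sham 2 (-0.97, adjusted p = 0.409).

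Il1rn, the interleukin 1 receptor antagonist, had 18.3, 25.1, 24 and 17.1 CPM after RYGB and 2.8, 4.2, 8.9 and 4.5 CPM after sham surgery, without overlap (1.93, SE 0.26, adjusted p = 0.00291). Cd14, the co-receptor for lipopolysaccharide, had 13.8, 76, 16.9 and 13.5 CPM against 2.2, 4.9, 5.1 and 3.9 CPM (2.26, SE 0.47, adjusted p = 0.0186), and RYGB 2 stood far above the rest. The call was lost without sham 1 (adjusted p = 0.0557) and without sham 4 (adjusted p = 0.0507). C3, the central complement protein, had 12450.0, 14516, 12249.7 and 12427 CPM against 6999, 5636, 7000.1 and 6655 CPM, close within each group (0.98, SE 0.20, adjusted p = 0.0194, 5 of 8 fits, not called after scaling at 0.82). Steap4 (1.44) and Cp, ceruloplasmin (1.04), also rose in all 4 RYGB livers. Within lanes 2, 3 and 4 the median of the list was 0.13, 1.20 and -0.24, highest in the lane that held RYGB 2. The list had 6 DEGs without RYGB 2, 5 without RYGB 3, 5 without sham 2 and 4 without sham 4. It had 6 higher without sham 3, and 6 higher and 1 lower without RYGB 2 and sham 3.

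Of 23 chemokines and receptors 17 were in the table. Of these 6 were higher DEGs, against 5.79% of all genes, and none was lower. Ccl2, which draws Ccr2-bearing monocytes, had 8, 16.5, 6.5 and 4.8 CPM after RYGB and 0.9, 1.6, 1.7 and 0.9 CPM after sham surgery. Every RYGB value lay well above every sham value (2.02, SE 0.30, adjusted p = 0.00506). Cxcr4 (1.36), Ccr1 (1.28), Cxcl16 (1.26), Ccl7 (1.25, 6 of 8 fits) and Ccl6 (1.12) rose too. For Ccr1 and Ccl7 all sham livers were under 1 CPM, and of the other 15 genes 4 were DEGs, while Cxcl1, which draws neutrophils, had overlapping ranges (0.35, adjusted p = 0.348). Markers of lymphocytes gave no DEG by limma, with an unadjusted p under 0.05 for 1 B and plasma cell marker and 2 T and NK cell markers. Over all genes this p was under 0.05 for 3181 of 11807. There was 1 higher B and plasma cell DEG without RYGB 1, 1 higher T and NK cell DEG without RYGB 4, and 1 lower one without sham 3 or with lane as a covariate. Of 13 B and plasma cell markers 7 were in the table, and Ighm had 13.6, 78, 14.5 and 9.5 CPM after RYGB and 16.4, 17.9, 7.9 and 18.9 CPM after sham surgery, with RYGB 2 apart (0.42, adjusted p = 0.635). Of 16 T and NK cell markers 3 were in the table, and Cd3e and Cd8a were not.

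Genes of stellate cells and matrix were higher in part, with 11 higher DEGs among 26, against 5.79% of all genes, and a median of 0.80. Col1a1, the main fibrillar collagen, had 32.2, 26.2, 64.9 and 23.2 CPM after RYGB and 7.9, 9.9, 23.6 and 14.6 CPM after sham surgery. RYGB 3 was highest, and sham 3 just exceeded RYGB 4 (1.32, SE 0.35, adjusted p = 0.0429, called in 3 of the 8 fits and not after scaling). Timp1, an inhibitor of matrix proteases, had 3.7, 1.6, 3.7 and 1 CPM against 0.1, 0.3, 0.4 and 0.3 CPM (1.37, SE 0.28, adjusted p = 0.0169), and lost the call without RYGB 3 (adjusted p = 0.0531). All its sham values were under 1 CPM, so the listing left no overlap, and 10 of the other 25 genes were DEGs. Lum, a proteoglycan of collagen fibres, had 30.3, 28.5, 52.9 and 25.5 CPM against 14, 13.5, 11.4 and 20.6 CPM (1.13, SE 0.23, adjusted p = 0.0176). Acta2, the smooth muscle actin of activated stellate cells, had 5.3, 7.1, 9.7 and 5.4 CPM against 2.5, 3.4, 3.8 and 8.2 CPM, and sham 4 lay within the RYGB range (0.59, adjusted p = 0.206). The list had 6 DEGs after scaling, 5 without RYGB 2, 1 without RYGB 3, 16 without RYGB 4, 3 without sham 1, 3 without sham 2, 9 without sham 3, 5 without sham 4 and 10 without RYGB 2 and sham 3. Its median stayed between 0.62 and 0.91 in these fits. None of 12 sinusoidal endothelial markers and none of 4 bile duct markers tested was a DEG by limma. An unadjusted limma p under 0.05 was found for 5 and 0 of them, against 3181 of all 11807 genes. With lane as a covariate 5 sinusoidal endothelial markers were higher DEGs, and without RYGB 1 there was 1.

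**Figure D4:**
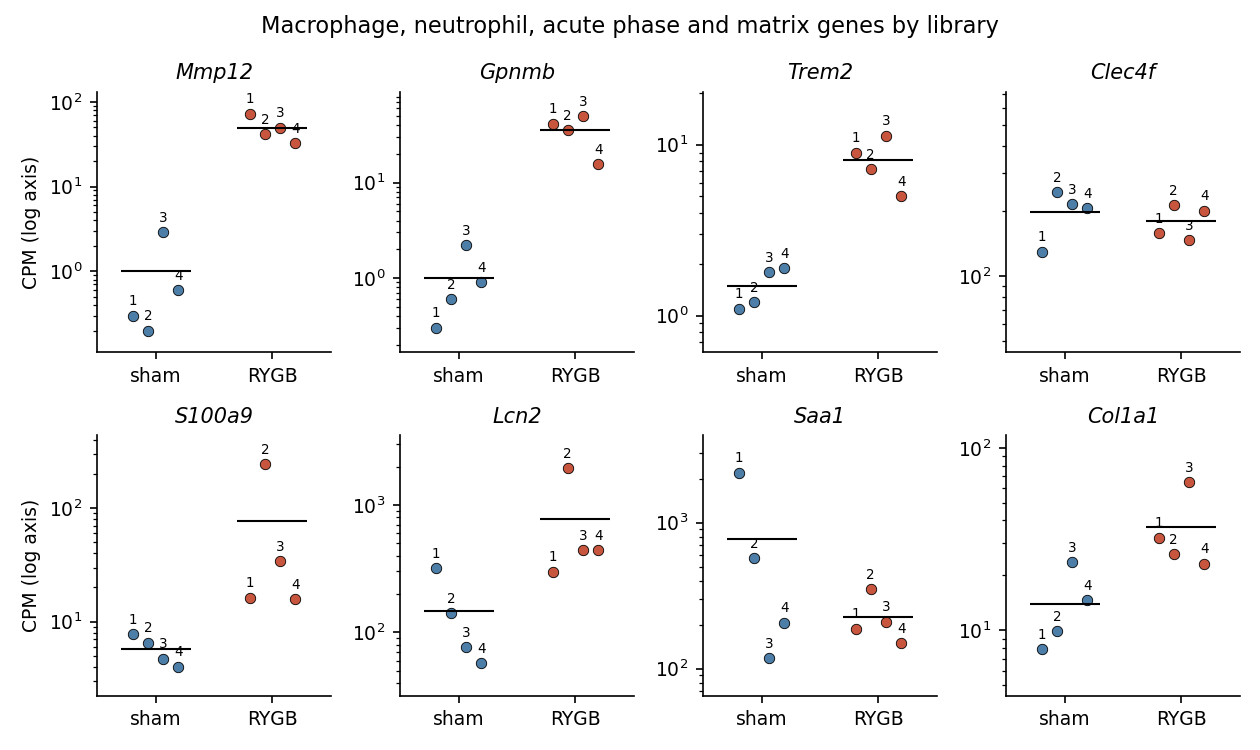
CPM on a log axis of macrophage genes (Mmp12, Gpnmb, Trem2), the Kupffer cell marker Clec4f, the neutrophil marker S100a9, the acute phase genes Lcn2 and Saa1 and the collagen gene Col1a1 in each library, with the library number beside each point and the group mean as a line. The macrophage genes do not overlap, Clec4f does, RYGB 2 is highest for S100a9 and Lcn2, and sham 1 is highest for Saa1.

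Interferon-induced genes gave more lower than higher DEGs. Of 19 tested 4 were lower DEGs, against 1.29% of all genes, and 1 was higher, with a median of -0.41. Oasl1, an antiviral regulator, had 22.3, 15, 25.1 and 16.4 CPM after RYGB and 37.6, 49.1, 32.5 and 32.4 CPM after sham surgery, without overlap (-0.92, SE 0.18, adjusted p = 0.0165), and held in all 8 fits. Ifit1 had 15.9, 5.9, 24.6 and 14.5 CPM against 31.4, 58, 35.2 and 30.6 CPM (-1.39, SE 0.34, adjusted p = 0.0345, 3 of 8 fits). Irf7, the factor that amplifies the interferon response, was at -0.73 (adjusted p = 0.0332, 3 of 8 fits) and Mx2 at -0.91 (adjusted p = 0.0431, 1 of 8 fits). Gbp2, which answers mainly to interferon gamma, was the higher one (0.98, adjusted p = 0.0364, 3 of 8 fits). The number of lower DEGs ranged from 1 to 6 with 1 library left out, being 6 without RYGB 3, 2 without RYGB 2 or sham 3, and 1 without RYGB 4, sham 1, sham 2 or sham 4. The median within lanes 2, 3 and 4 was -0.88, -0.84 and 0.09. None of 7 genes of MHC class II was a DEG by limma, with a median of 0.78, and 2 were higher DEGs without RYGB 4. An unadjusted limma p under 0.05 was found for 5 of the 7, against 3181 of all 11807 genes.

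Targets of NRF2, the factor that answers oxidative and electrophilic stress, were higher in part. Of 15 genes tested, the gene of NRF2 itself (Nfe2l2, 0.04, -0.11 after scaling) included, 6 were higher DEGs, against 5.79% of all genes. The median was 1.01. Cbr3, a carbonyl reductase, had 10.8, 36.8, 6 and 3.3 CPM after RYGB and 0.4, 0.6, 2.8 and 0.4 CPM after sham surgery. RYGB 2 was highest, and RYGB 4 lay just above sham 3 (2.53, SE 0.57, adjusted p = 0.0249, called in 4 of the 8 fits). Srxn1, which restores oxidized peroxiredoxins, had 143, 363, 174 and 116 CPM against 60.8, 65.8, 74.2 and 58.2 CPM (1.47, SE 0.28, adjusted p = 0.0144) and held in all 8 fits. Nqo1, a quinone reductase, had 24.3, 55.5, 21.5 and 16.2 CPM against 6.5, 8.2, 12.7 and 7.1 CPM without overlap (1.54, SE 0.32, adjusted p = 0.0194, 6 of 8 fits). Gstm3 was at 1.97 (adjusted p = 0.0206, 6 of 8 fits). Hmox1, heme oxygenase, had 64.9, 208, 53.7 and 57 CPM against 29, 38.3, 42.4 and 26.8 CPM, all RYGB values above all sham values, and missed the threshold (1.24, adjusted p = 0.0608). After scaling 4 of the list were DEGs. The count was 5 without RYGB 2, 9 without sham 3, 7 without both, 3 without RYGB 3, 2 without sham 1, 2 without sham 4 and 10 with lane as a covariate, and the median within lanes 2, 3 and 4 was 1.00, 1.14 and 0.91.

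Among 18 genes of the integrated stress response 3 were higher DEGs, against 5.79% of all genes. They were Fgf21, Atf3 and Trib3 (1.14, 4 of 8 fits). The count was 3 without RYGB 2, 5 without sham 3 and 4 without both. Fgf21, a liver hormone of fasting and protein restriction, had 4.8, 10.2, 36.9 and 7.3 CPM after RYGB and 1.2, 0.7, 0.6 and 1 CPM after sham surgery. RYGB 3 was highest and no sham liver exceeded 1.2 CPM (2.68, SE 0.46, adjusted p = 0.00939). Atf3, an early stress factor, had 9.5, 9.6, 12.9 and 6.5 CPM against 2.3, 2.4, 2 and 1.4 CPM (1.79, SE 0.20, adjusted p = 0.00118). Asns, asparagine synthetase, had 16.2, 75.5, 5.6 and 5.2 CPM against 5.2, 10.8, 4.1 and 3.8 CPM, and only RYGB 2 stood out (1.23, adjusted p = 0.267). None of 18 endoplasmic reticulum chaperone genes was a DEG by limma, and their median rounded to 0 (-0.00). An unadjusted limma p under 0.05 was found for 3 of them, against 3181 of all 11807 genes. Of 27 cell cycle genes 2 were higher DEGs, a share near the 5.79% of all genes. They were Ccnd1, which encodes cyclin D1 (1.22, adjusted p = 0.0206, 5 of 8 fits), and Myc (1.30, adjusted p = 0.022, 5 of 8 fits). There were 4 without RYGB 1, 2 without RYGB 2 or sham 3, and none without RYGB 3, sham 1, sham 4 or both RYGB 2 and sham 3. Mki67, a mark of dividing cells, had 5.6, 28.8, 29.7 and 16.8 CPM against 8.6, 21.2, 7.4 and 7.5 CPM with overlap (0.71, adjusted p = 0.357).

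In bile acid synthesis and transport, 3 of 29 genes were higher and 2 lower, against 5.79% and 1.29% of all genes, and the median was -0.03. Cyp39a1, an oxysterol hydroxylase, had 72.7, 105, 95 and 93 CPM after RYGB and 16.5, 13.8, 33.8 and 18.9 CPM after sham surgery. The groups were well apart, and sham 3 was the highest sham liver (2.15, SE 0.23, adjusted p = 0.00106). Cyp7b1, the other oxysterol hydroxylase of liver and a male-biased gene, had 179.5, 144, 161 and 182 CPM against 454, 468, 302 and 279.6 CPM (-1.14, SE 0.18, adjusted p = 0.00666). Of the uptake carriers, Slco1a4 had 88, 79.2, 94.3 and 94.4 CPM against 19.4, 13.2, 60 and 14.9 CPM, the opposite direction to Slco1a1 (1.96, SE 0.37, adjusted p = 0.0138). Cyp7a1, the rate-limiting enzyme of bile acid synthesis, had 565, 494, 336 and 566 CPM against 249, 564, 187 and 203 CPM. Sham 2 lay within the RYGB range and the difference did not pass the test (0.83, adjusted p = 0.121). Nr0b2, which the bile acid receptor induces, was at -0.92 (adjusted p = 0.129).

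Among 22 apolipoprotein and lipoprotein genes, Apoa4 had 1666, 3065, 2211 and 2938 CPM after RYGB and 603, 661, 1389.6 and 612 CPM after sham surgery (1.65, SE 0.29, adjusted p = 0.01). Sham 3 was again nearest to the RYGB group. Lpl was the other higher DEG, and Apoc3 was lower by a value at the threshold (-0.70, adjusted p = 0.0497, 1 of 8 fits) that was not called after scaling. Of 22 genes of the cytochrome P450 families 1 to 3 and their receptors, Cyp2c29 was lower with 537, 131, 198 and 413 CPM against 1375, 955, 1015 and 1488 CPM (-2.10, SE 0.38, adjusted p = 0.0117), Cyp2c54 was lower (-0.94) and Cyp2c39 higher (0.98). Of all genes 5.79% were higher and 1.29% lower DEGs. The P450 list had 6 DEGs without RYGB 1 and 5 without RYGB 4 or with lane as a covariate. The apolipoprotein list had 5 without RYGB 1. Abcc12 and Chil3, on no list other than that of the largest increases, were at 2.52 (SE 0.23, adjusted p = 0.000417) and 2.88 (SE 0.52, adjusted p = 0.0117). Chil3, a lectin of macrophages and neutrophils, had 8, 51.6, 11.5 and 6.2 CPM against 1.4, 1.7, 0.6 and 0.4 CPM, with RYGB 2 highest.

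The next lists held 1 DEG each, where 7.08% of all genes were DEGs. Among 33 genes of the urea cycle and amino acid catabolism 1 was a DEG, Prodh, which degrades proline (-0.81, adjusted p = 0.0292, 3 of 8 fits). Of 18 clock genes 1 was a DEG, and it was lower. Of 16 iron genes 1 was a DEG, Slc11a2, an iron importer (0.94, adjusted p = 0.0139). Of 6 erythroid markers 1 was a DEG, Alas2, the heme synthesis enzyme of red cells, with 63.6, 71.5, 65.3 and 61.7 CPM against 158, 163, 112 and 123 CPM (-1.06, SE 0.13, adjusted p = 0.00209). All 6 were lower on the fold change scale, with a median of -0.63. The hemoglobin genes, which share reads, were not called, and Hbb-bs had 48.6, 278, 167 and 213 CPM against 489.6, 236, 90.9 and 200.4 CPM (-0.53, adjusted p = 0.566). Of the markers of pancreas, fat and gut, 2 of 16 were tested and neither was a DEG or had an unadjusted limma p under 0.05.

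**Figure D5:**
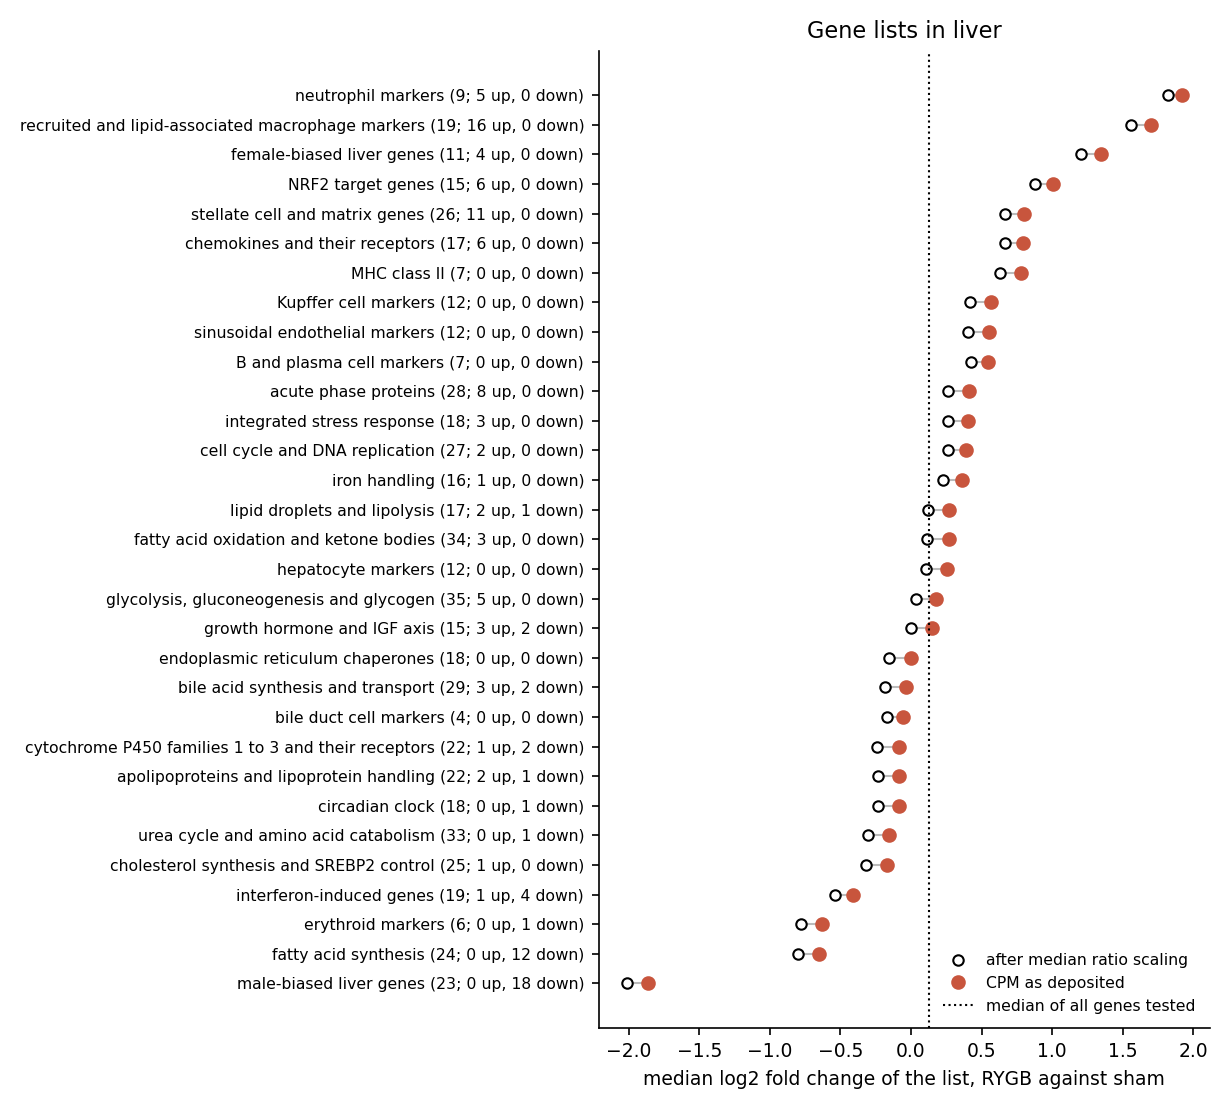
Median log2 fold change of each gene list with at least 4 genes tested, with CPM as deposited (filled) and after median ratio scaling (open), and with the median of all genes as a dotted line. The numbers beside each name are the genes tested and the DEGs that were higher and lower. Neutrophil markers (1.92) and recruited macrophage markers (1.70) lie at the top, and fatty acid synthesis (-0.65) and male-biased genes (-1.86) at the bottom.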

How the data were processed

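Messenger RNA of 8 livers (4 RYGB, 4 sham) had been sequenced after a stranded mRNA kit (Illumina TruSeq). The submitters' processing notes name GRCm38 and HTSeq, and the aligner is not given in the sources used here. The values the authors deposited are CPM per gene, rounded to 0.1, in 1 table for the tissue. The columns summed to 985099 to 990199 CPM, and every one of the 11843 genes had 1 CPM in at least 4 libraries, so total counts, and with them the depth and counting error of a library, are unknown. The steps of 0.1 CPM were filled almost without gaps (at most 1 of 50 empty), so whole reads could not be recovered and no count test was run. Of 11856 lines, 12 were broken and were left out. Each held 6 CPM values, an empty cell and a number of another kind, and in the 3 of them whose gene also had a complete line the 6 values were those of RYGB 1, 3, 4 and sham 1, 2, 4. One further line was a repeat. Gene names and positions came from GENCODE M21 (GRCm38), which held 11821 of the IDs. The tables of the other tissues were not used here.

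RYGB and sham were compared with limma 3.58.1 in R 4.3.3 on log2(CPM + 1), with surgery as the only term and a trend in the prior variance, over 11807 genes whose mean reached 1 CPM. A DEG had a Benjamini-Hochberg adjusted p under 0.05 and at least 1.5-fold change. The script was tested on simulated data. No gene set test was run, and lists are described by DEG counts and medians. The 33 lists, 648 genes in all, and the genes to be named (the 10 largest increases and decreases among DEGs with separate groups, the lead genes of each list and its 3 largest DEGs) were chosen with earlier results of these data known. Lead genes that did not pass the test are named only in part, and some genes are not reported here. The alternatives were scaling by median ratios, a pseudocount of 0.1, no minimum or a mean of 10 CPM, lane as a covariate, the replicate number as a block and each library left out. Promoters came from RefSeq (GRCm38.p6). The search for read sharing used windows of 50 bases in GENCODE M21 transcripts. Figures and tables were made with Python 3.11.15 and pandas 2.3.3.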

Additional observations from a re-analysis of the deposited data

Results flagged for a closer look

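In 17 of the 278 groups of 4 livers behind the genes named, Pklr aside, 1 value lay far from the other 3 on the scale of log2(CPM + 1). Chance alone gives about 13.9. The numbers in parentheses are the gap to the nearest value as a share of the range of the group.

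RYGB 2 was the value apart in 7 of them. It was highest for Cd14 (76 CPM against 13.5 to 16.9, 0.874), Il1b (21.3 CPM against 7.1 to 7.6, 0.941), Lyz2 (732 CPM against 247 to 293, 0.844), Cd5l (804 CPM against 237 to 285, 0.85), Hmox1 (208 CPM against 53.7 to 64.9, 0.861) and C3 (14516 CPM against 12250 to 12450, 0.904), and lowest for Mlxipl (142 CPM against 209 to 223, 0.857).

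Sham 3 was the value apart in 5 groups. It was highest of the sham livers for Apoa4 (1390 CPM against 603 to 661, 0.891), Cbr3 (2.8 CPM against 0.4 to 0.6, 0.866) and Ppp1r3g (1 CPM against 0.1 to 0.2, 0.854), and lowest for Mup7 (936 CPM against 2956 to 3466, 0.878) and Ighm (7.9 CPM against 16.4 to 18.9, 0.833). In all of these but Ighm it lay on the side of the RYGB mean. For Ighm only RYGB 2 lay above every sham liver, and without RYGB 2 the log2 fold change was -0.22.

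The other groups were spread over further libraries. RYGB 1 was highest for Srebf1 (196 CPM against 74.6 to 81.3, 0.911). Sham 1 was lowest of the sham livers for Cxcl16 (6.4 CPM against 10.7 to 11.4, 0.887), Lyz2 (72.6 CPM against 104 to 111, 0.84) and Sucnr1 (32.1 CPM against 54.6 to 59, 0.872). Sham 2 was highest for Mki67 (21.2 CPM against 7.4 to 8.6, 0.863).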

How the results depend on the processing

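The number of DEGs, 836, was 672 after scaling, 894 with a pseudocount of 0.1, 840 with no minimum on CPM, 1090 with lane as a covariate and 1016 without a minimum fold change. When the minimum mean was raised to 10 CPM, and fewer genes entered the test, it was 458. Leaving out 1 library gave from 329 (without RYGB 3) to 1204 (without RYGB 1) DEGs. It was 387 without sham 4, 394 without sham 1, 468 without sham 2, 544 without RYGB 2, 687 without sham 3 and 975 without RYGB 4. The cause of these differences was not tested. The list counts given above for these fits are to be read beside these totals. Settings added after seeing the data gave 605 DEGs without RYGB 2 and sham 3 together, and 778 with scaling and lane combined. Of the 139 genes named, Pklr aside, 123 kept their call status and direction after scaling, 14 lost the call and 2 changed sign. With 1 library left out, between 2 (without RYGB 1) and 37 (without sham 4) lost the call.

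The labels give both groups the replicate numbers 1 to 4. The deviations of same-numbered livers from their group means correlated at 0.267, 0.167, -0.0552 and 0.24 across genes, and 3 of the 4 pairs correlated best with their own number. Pairs were to be accepted only if every correlation exceeded 0.1, which 1 did not, so the numbers were not taken as pairs. With the replicate block there were 1236 DEGs, 1048 of them higher. Of the genes named, 2 lost the call and 5 gained it, and 3 Kupffer cell, 5 sinusoidal endothelial and 5 MHC class II genes became higher DEGs.

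Among the genes named, signs changed only in genes that were not DEGs. Timd4 was -0.0437 after scaling, -0.0055 with a pseudocount of 0.1, and from -0.67 to 0.93 with 1 library left out. Hmgcs1 ranged from -0.32 to 0.14, Sqle from -0.0544 to 0.43, Cyp2b9 from -0.13 to 2.11, Ighm from -0.22 to 0.75 and Hbb-bs from -0.94 to 0.0037 in the same fits. Nfe2l2 was -0.1115 after scaling and ranged from -0.0634 to 0.15. The depth of the libraries is unknown, so the error of low values cannot be given, and changes of genes near 1 CPM rest on values rounded to 0.1.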

Other observations

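Some DEGs with a large change belong to none of the lists above and were chosen after their values were seen. Lepr, the leptin receptor, had 18, 46.6, 49.2 and 36.6 CPM after RYGB and 1.8, 6.1, 22 and 3.2 CPM after sham surgery. Sham 3 exceeded RYGB 1, and the log2 fold change was 2.45 (SE 0.55, limma adjusted p = 0.0245, 4 of 8 fits). Acod1, which makes itaconate in activated macrophages, had 3.9, 20.1, 2.5 and 3.3 CPM against 0.1, 0.2, 0.5 and 0.1 CPM (2.37, limma adjusted p = 0.0153), and was listed only through the RYGB livers. Csad, an enzyme of taurine synthesis, had 471, 282, 159 and 182 CPM against 81, 69, 53.4 and 80.1 CPM, with no overlap and RYGB 1 highest (1.82, limma adjusted p = 0.0076). The growth arrest gene Gadd45b had 3.4, 4.5, 4.1 and 3.6 CPM against 0.7, 0.5, 0.7 and 0.5 CPM, and the filter on low values fixed that its groups did not overlap. The early response genes Nr4a1 (1.60) and Klf6 (1.49) were higher in every RYGB liver than in any sham liver.

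Among the lower DEGs, Lrtm1 had the smallest p value of all genes, with 1.5, 2, 1.5 and 1.9 CPM after RYGB and 11.7, 10, 11 and 12.5 CPM after sham surgery (-2.18, SE 0.13, limma adjusted p = 5.96e-05). Inmt, an amine methyltransferase, had 75.2, 16.7, 27.3 and 29.9 CPM against 147, 174, 259 and 252 CPM, and here sham 3 was the highest sham liver (-2.63, limma adjusted p = 0.00396). Sucnr1, the succinate receptor, had 19.8, 12, 16.2 and 12.2 CPM against 32.1, 54.6, 57 and 59 CPM (-1.68, limma adjusted p = 0.00216). Sham 3 was thus not nearer to the RYGB group in every DEG.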
